A study of Drosophila melanogaster with 2 samples.

Results

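The Hox genes of Drosophila melanogaster are 8 homeobox genes that lie in 2 clusters on chromosome arm 3R. The Antennapedia complex holds lab, pb, Dfd, Scr and Antp, and the bithorax complex holds Ubx, abd-A and Abd-B. Binding of the protein CG7271 at these genes was taken from 4 peak lists of chromatin immunoprecipitation with sequencing (ChIP-seq). A peak was given to a Hox gene where its summit lay within the gene, or where the nearest transcription start site (TSS) of a protein-coding gene belonged to it. The 8 genes are among 13945 protein-coding genes on the chromosome arms. They held 17 of the 2445 peaks that passed the authors' threshold on the irreproducible discovery rate (IDR), a measure of how well the ranks of peaks hold between replicates. They held 197 of the 30000 peaks called on both replicates together, 195 of 30000 in replicate 2 and 173 of 30000 in replicate 3. No peak of the pooled list was given to 2 Hox genes.

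Whole embryos aged 0 to 4 h were used, from a transgenic line with a stable CG7271 fusion whose C terminus carries GFP, the green fluorescent protein. Both libraries, biological replicates 2 and 3, carry this allele and came from separate biosamples, and they form 1 group, so no contrast between conditions exists. The promoter that drives the tagged protein is not given in the sources used here, and the control library was not analysed here. The precipitation used an antibody against GFP per the description, whereas the antibody label names CG7271. In whole embryos, binding in a few nuclei and weak binding in all nuclei cannot be told apart. Peak signal has a scale set by the authors and is compared only within a list. It is given here as a rank, with 1 as the highest, or as a multiple of the list's median.

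Hox genes encode homeodomain transcription factors that give segments their identity along the head to tail axis, in the order in which the genes lie on the chromosome. Gap and pair-rule proteins switch them on in stripes in the early embryo, and Polycomb and trithorax group proteins later keep them off or on. Their enhancers lie far from the start sites, in long introns and in the intergenic stretches of the complexes, and non-coding RNAs such as bxd and iab-8 are made from these stretches.

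The sequence under the summit is shown for the IDR peak of highest signal of each Hox gene that had one. It is also shown for 1 further peak each of Ubx and abd-A that held several motif matches. Further Antp peaks of higher signal, at ranks 467 and 548, are not shown. The windows therefore do not give the share of summits with a motif. Each window spans 50 bases to either side of the summit, from the plus strand of dm6 as held by RefSeq. Capitals mark TTTATG, the core that the posterior homeodomain proteins Caudal and Abd-B bind, and TTTTTT, the run that the gap protein Hunchback binds, or their reverse complements CATAAA and AAAAAA. These 2 motifs were chosen for marking after their counts were known.
lab, peak of rank 575, chr3R:6667404-6667504: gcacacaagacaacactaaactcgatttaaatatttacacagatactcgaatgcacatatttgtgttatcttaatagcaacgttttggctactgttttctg
Dfd, peak of rank 1861, chr3R:6780198-6780298: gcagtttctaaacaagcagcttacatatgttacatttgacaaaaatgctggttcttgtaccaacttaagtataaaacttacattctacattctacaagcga
Scr, peak of rank 268, chr3R:6845788-6845888: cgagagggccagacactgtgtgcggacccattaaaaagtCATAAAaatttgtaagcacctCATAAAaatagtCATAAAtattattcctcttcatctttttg
Antp, peak of rank 117, chr3R:6914444-6914544: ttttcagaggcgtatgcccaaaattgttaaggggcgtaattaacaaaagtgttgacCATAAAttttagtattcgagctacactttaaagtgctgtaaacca
Ubx, peak of rank 561, chr3R:16718065-16718165: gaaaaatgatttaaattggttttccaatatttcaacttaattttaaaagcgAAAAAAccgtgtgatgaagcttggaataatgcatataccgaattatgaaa
Ubx, peak of rank 644, chr3R:16701125-16701225: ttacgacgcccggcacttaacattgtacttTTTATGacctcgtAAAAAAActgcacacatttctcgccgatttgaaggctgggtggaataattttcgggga
abd-A, peak of rank 1455, chr3R:16837949-16838049: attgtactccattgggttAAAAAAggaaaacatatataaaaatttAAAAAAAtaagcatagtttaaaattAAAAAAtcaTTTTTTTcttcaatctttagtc
abd-A, peak of rank 927, chr3R:16855988-16856088: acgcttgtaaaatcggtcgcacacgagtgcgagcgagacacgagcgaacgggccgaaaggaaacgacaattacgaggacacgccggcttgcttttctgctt
Abd-B, peak of rank 591, chr3R:16921529-16921629: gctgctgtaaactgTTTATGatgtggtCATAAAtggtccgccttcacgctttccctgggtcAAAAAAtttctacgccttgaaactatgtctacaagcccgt
The Scr window held TTTATG 3 times and the Abd-B window held it 2 times, on either strand. The further abd-A window held TTTTTT 6 times, counting overlapping matches and both strands, and had a GC content of 18.8%. The windows at lab, Dfd and the abd-A peak of rank 927 held neither.

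Across the complexes, IDR peaks were found at 7 of the 8 Hox genes, all but pb. Antp and abd-A had 4 each, Ubx and Abd-B had 3 each, and lab, Dfd and Scr had 1 each. Among all protein-coding genes, 2083 of 13945 (14.9%) had an IDR peak by the same rule. The rule gave the Hox genes between 20.1 kb (lab) and 130 kb (Antp) of sequence each. Among genes to which the rule gave 20 kb of sequence or more, 654 of 2018 (32.4%) had one, a limit chosen after the values were seen. The median over the Hox genes was 2 IDR peaks and 21.5 pooled peaks per gene, against 0 and 6 over these long genes. The long genes were not matched in length to the Hox genes, all of which but lab were given 35.3 kb or more.

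**Figure D1:**
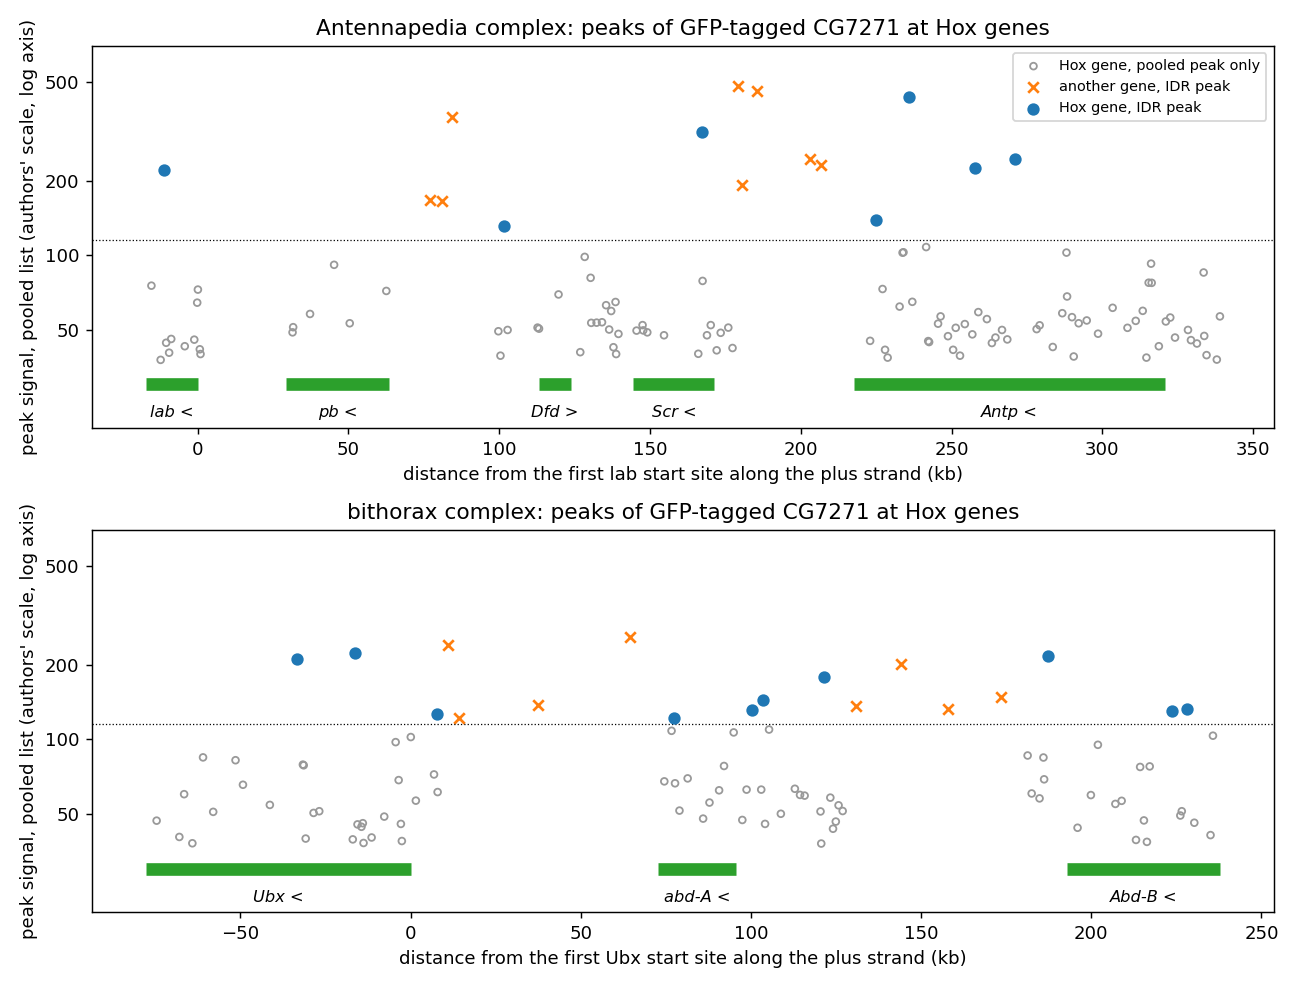
Peaks along the Antennapedia complex (top) and the bithorax complex (bottom). The x axis is the distance in kb from the first start site of lab or Ubx along the plus strand, and the y axis is the authors' signal in the pooled list on a log scale. Filled circles are the 17 IDR peaks given to Hox genes, and open circles are their other pooled peaks. Crosses are IDR peaks given to other genes only, and green bars are the Hox genes with their direction. The dotted line is the lowest signal in the IDR list, 115.4, and the highest filled circle is the Antp peak at 433.3.

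Per length of sequence, Hox genes carried more peaks than the arms as a whole. The 465 kb given to them held 3.66 IDR peaks and 42.4 pooled peaks per 100 kb, against 1.83 and 22.4 over all arms. The 17 IDR peaks stood against 8.49 expected from length alone. The bithorax complex genes had 10 IDR peaks in 201 kb (4.98 per 100 kb), and the Antennapedia complex genes had 7 in 264 kb (2.65 per 100 kb). These counts are small, and the contrast depends on counting Hox genes only. Over the whole spans of the complexes, all genes included, there were 18 IDR peaks in 316 kb and 15 in 338 kb. Pooled peaks of the Hox genes were equally dense in both complexes, at 42.4 per 100 kb. These densities cover all 8 genes together and carry no test.

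Gene by gene, a two-sided exact binomial test set the IDR peaks of each protein-coding gene against its share of the arm sequence. After Benjamini-Hochberg adjustment over 13945 genes it called 0 of the 8 Hox genes, and 5 genes (0.0359%) were called higher overall. The largest ratio was at abd-A, with 4 IDR peaks against 1.02 expected (3.91-fold, exact p = 0.0203, adjusted p = 1). In the IDR list it was the only Hox gene with an unadjusted p under 0.05, among 570 genes in all. Next came Abd-B with 3 against 1.07 expected (2.81-fold, exact p = 0.0931, adjusted p = 1), and lab with 1 against 0.367. The Abd-B ratio rested on the libraries used. Without replicate 2 it was 0.937 (1 peak), and without replicate 3 it was 3.75 (4 peaks, exact p = 0.0234, adjusted p = 1). The ratios were 1.9 at Ubx, 1.69 at Antp, 1.48 at Scr and 1.29 at Dfd, which had 0 peaks without replicate 2. With so few peaks per gene, the test could call only large ratios, so it does not show that these genes carry as many peaks as their length gives.

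**Figure D2:**
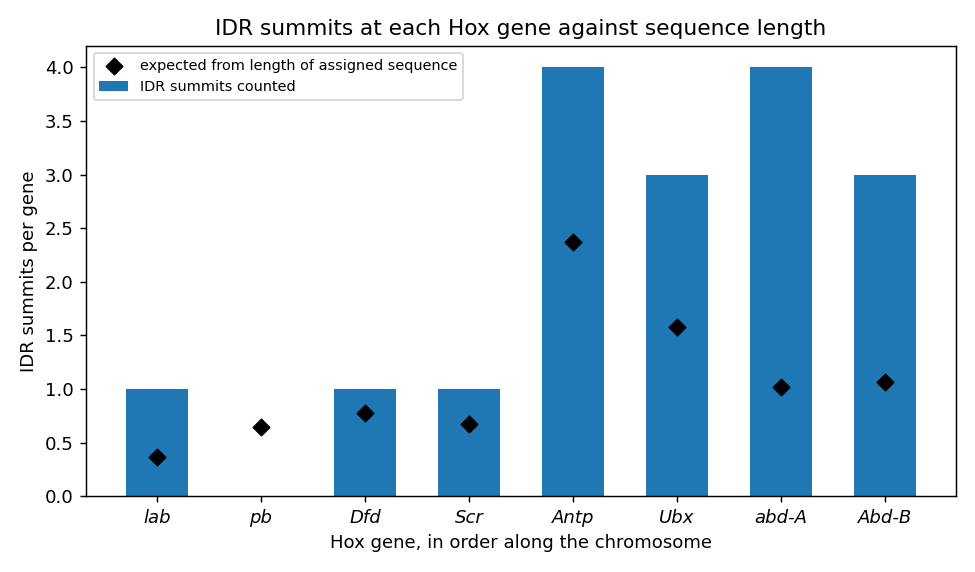
IDR peaks at each Hox gene. The x axis lists the genes in order along the chromosome and the y axis is the number of IDR summits. Bars are counts and diamonds are the numbers expected from the length of sequence given to the gene. At abd-A the count was 4 against 1.02 expected, and at pb it was 0 against 0.644.

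The Hox peaks of the pooled list ran from rank 117 to rank 29873. Their highest signal was 433, against 1157.7 elsewhere. IDR peaks, which are the 2445 pooled peaks of highest signal, made up 8.63% of Hox pooled peaks (exact 95% interval 5.11 to 13.5, 17 of 197) and 8.15% (7.84 to 8.46) of all others. The median rank of the Hox pooled peaks was 13880, against 15008 elsewhere. A two-sided Fisher exact test per gene on this share called 0 of 9754 genes with a pooled peak (0%) after Benjamini-Hochberg adjustment, and 0 Hox genes and 85 genes in all had an unadjusted p under 0.05. Away from annotated 5′ ends, 16 of 174 Hox pooled peaks were IDR peaks (9.2%, interval 5.35 to 14.5), against 1150 of 20754 elsewhere (5.54%, 5.23 to 5.86). By gene, the share ran from 0 of 6 at pb and 5% at Dfd to 13% at Abd-B and 13.3% at abd-A. All intervals cover counting error only, and neighbouring peaks are not independent.

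The IDR peaks of Hox genes lay mostly in introns and far from start sites. Of the 17, 12 (70.6%, exact interval 44 to 89.7) had their summit in an intron of a protein-coding gene, against 28% of other IDR peaks. Within 500 bp of an annotated 5′ end there was 1 (5.88%, 0.149 to 28.7), against 52.6% of other IDR peaks, and that end belongs to mir-iab-4, not to a Hox gene. Exons of non-coding genes held 2, an intron of a non-coding gene held 1, and 1 was intergenic. Inside the Hox gene itself lay 11, of which 10 were in its introns. Among IDR peaks away from annotated 5′ ends, introns of protein-coding genes held 12 of 16 for Hox genes and 679 of 1150 for other genes. The gap in intron share is therefore smaller once peaks at 5′ ends are left out. The distance to the nearest start site of the Hox gene had a median of 8847 bp and ran from 1190 to 33251 bp. For other IDR peaks the median distance to a protein-coding start site was 506.5 bp. That median includes the 52.6% of them at 5′ ends, so the 2 medians are not matched. Start sites are also sparse at Hox genes, with 19 in 465 kb, against 19252 protein-coding start sites over all arms. Whether this spacing had a part in the distances was not tested. Introns also held most Hox peaks of the pooled list, with 121 of 197 in introns of protein-coding genes (61.4%, against 36.8% elsewhere) and 23 at 5′ ends (11.7%, against 30.4%).

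None of the 19 annotated start sites of Hox genes had an IDR summit within 500 bp, against 10.5% of the 19252 start sites of protein-coding genes. The 19 sites belong to 8 genes, with 6 at Abd-B alone, and are too few to tell 0 from 10.5%. Lower peaks were present at some of the Hox start sites. In the pooled list, 10 of the 19 had a summit within 500 bp (52.6%, against 51.9% overall). The highest lay 398 bp from an abd-A start site, at rank 2919 with signal 106.6, and the next lay 46 bp from the Ubx start site, at rank 3234 with signal 102.1. The summits nearest to the Ubx start site ranked 3320 in replicate 2 and 5984 in replicate 3. Summits at the lab start sites ranked 6300 and 6808, and the summit at the Dfd start site ranked 15602.

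lab, the most anterior of the group, is needed in the head and in the midgut, and lies at 3R 6661427 to 6678590 on the minus strand. Its IDR peak (6667264 to 6667643) ranked 575 in the pooled list, with signal 4.29 times the median. It ranked 594 in replicate 2 (3.7 times the median) and 728 in replicate 3 (3.92 times), so both libraries placed it alike. The summit lay in the long first intron, 4000 bp upstream of an internal start site. The other 11 pooled peaks of lab ranked 6300 or lower.

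pb, which directs the mouthparts of the adult, lies at 6707800 to 6742063 and had the fewest pooled peaks of the 8 genes, though its 14 peaks in the replicate 3 list outnumbered those of Scr (9) and lab (10). It had 6 pooled peaks, or 17 per 100 kb, below the 22.4 of the arms. The highest (6723654 to 6724033) lay in an intron and ranked 4140 in the pooled list, 5160 in replicate 2 and 4784 in replicate 3. In both libraries it therefore stood outside the 2445 highest. The binomial test did not call pb lower (0 against 0.644 expected, exact p = 1).

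Dfd, which shapes the maxillary and mandibular segments, lies at 6791836 to 6802428 on the plus strand. It had the only intergenic IDR peak of the group (6780058 to 6780437), 11588 bp upstream of its start site and 1296 bp from the 5′ end of lncRNA:CR43435. The peak ranked 1861 in the pooled list, 1392 in replicate 2 and 3516 in replicate 3. Its signal was 2.58 times the median in replicate 2 and 1.91 times in replicate 3, so it was among the highest 2445 in replicate 2 only.

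Scr, which acts in the labial and prothoracic segments and in the salivary glands, lies at 6823120 to 6849981. Its IDR peak (6845721 to 6845900) was the second highest of the Hox peaks, with pooled rank 268 and signal 6.12 times the median. It ranked 201 in replicate 2 (5.84 times the median) and 476 in replicate 3 (4.82 times). The summit lay in the first intron, 2667 bp downstream of a start site, over the window with 3 matches to TTTATG.

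Antp, which gives thoracic segments and legs their identity, lies at 6896253 to 6999228 and had 4 of the 7 IDR peaks and 60 of the 112 pooled peaks given to the Hox genes of the Antennapedia complex. Only 5 protein-coding genes had 60 or more pooled peaks, and 65 (0.466%) had 4 or more IDR peaks. The highest Hox peak of all lay here (6914441 to 6914616), in a long intron 18346 bp downstream of the nearest Antp start site. It ranked 117 in the pooled list, 131 in replicate 2 and 124 in replicate 3, with signals of 8.45, 6.94 and 8.35 times the medians. No other Hox peak was placed as high in either library.

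The peaks in the same intron at 6936135 to 6936514 and 6949430 to 6949574 ranked 548 and 467 in the pooled list. In replicate 2 they ranked 466 and 581, and in replicate 3 they ranked 631 and 336. The libraries thus ordered them differently, though both were among the highest 2445 of each. The last Antp peak (6903287 to 6903666) ranked 1634, 2043 in replicate 2 and 1598 in replicate 3, and its summit lay in an exon of lncRNA:CR43252, which sits within Antp. CG46458, another annotated protein-coding gene, overlaps Antp and contains all 4 summits as well.

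Ubx, which sets the identity of the haltere-bearing segment and the anterior abdomen, lies at 16656623 to 16734426 and had 3 IDR and 32 pooled peaks. An intron held the peak at 16717925 to 16718304, 16311 bp downstream of the start site, and the last intron held the peak at 16700985 to 16701364, 33251 bp downstream. Their pooled ranks were 561 and 644, with 699 and 817 in replicate 2 and 562 and 579 in replicate 3. Both peaks stood well inside the highest 2445 of each library.

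The remaining Ubx peak (16741948 to 16742327) lay 7712 bp upstream of the start site, at the 3′ end of lncRNA:bxd, a non-coding RNA of the Ubx upstream region. It ranked 2021 in the pooled list and 1285 in replicate 2 but 6448 in replicate 3, with 2.65 and 1.44 times the replicate medians. This was the widest gap in rank between the libraries among the 17 peaks. Its summit window had a GC content of 11.9%, the lowest of the 17, and whether base composition had a part in the gap was not tested.

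abd-A, which acts in the abdominal segments, lies at 16807214 to 16830049, and had 4 IDR and 30 pooled peaks. Only 1 of the 4 lay in the gene (16811715 to 16812094, in an intron), with a GC content of 64.4%, the highest of the 17. It ranked 2164 in the pooled list, 2956 in replicate 2 and 1444 in replicate 3. The other 3 lay upstream, within lncRNA:iab8 and MSAmiP, a protein-coding gene annotated over the same stretch.

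Of those upstream peaks, the nearest to abd-A (16834680 to 16835059) ranked 1820, with 3016 in replicate 2 and 1449 in replicate 3. The next (16837809 to 16838188) ranked 1455, with 2176 and 1251. The farthest (16855848 to 16856227) ranked 927, with 1312 and 739, and had its summit 237 bp from the 5′ end of mir-iab-4, a microRNA precursor of the complex. All 4 abd-A peaks ranked higher in replicate 3 than in replicate 2, and 2 of them were outside the highest 2445 of replicate 2.

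Abd-B, which acts in the posterior abdomen and the genitalia, lies at 16927212 to 16972236 and had 3 IDR and 23 pooled peaks. The highest (16921389 to 16921768) lay outside the gene, 12663 bp downstream of the nearest Abd-B start site, in an intron of lncRNA:iab8. It ranked 591 in the pooled list, 778 in replicate 2 and 537 in replicate 3. The other peaks lay in an Abd-B intron, 2059 bp and 1190 bp from internal start sites. The one at 16958032 to 16958411 ranked 1858, with 1550 in replicate 2 and 2477 in replicate 3. The one at 16962261 to 16962640 ranked 1814, with 1352 and 3706, so both were among the highest 2445 of replicate 2 only.

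Between the libraries, all 17 Hox IDR peaks had a summit within 100 bp of the pooled summit in both replicate lists, against 96.1% of other IDR peaks. With a limit of 50 bp, 12 of the 17 did. For the abd-A peak of rank 2164, the replicate 3 summit had no replicate 2 summit within 100 bp of itself. The IDR list was selected on ranks that hold between replicates, so some agreement is built into these shares. Among the highest 2445 of both replicates were 11 of them (64.7%, exact interval 38.3 to 85.8), against 65.4% of other IDR peaks, and with the limit of 50 bp there were 8. Replicate 2 held 15 and replicate 3 held 13 among its highest 2445, and no Hox IDR peak was outside both. Ranks were higher in replicate 2 for 7 peaks and in replicate 3 for 10. Of all Hox pooled peaks, 68 of 197 had a summit in both replicate lists (34.5%, against 36.4% elsewhere).

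**Figure D3:**
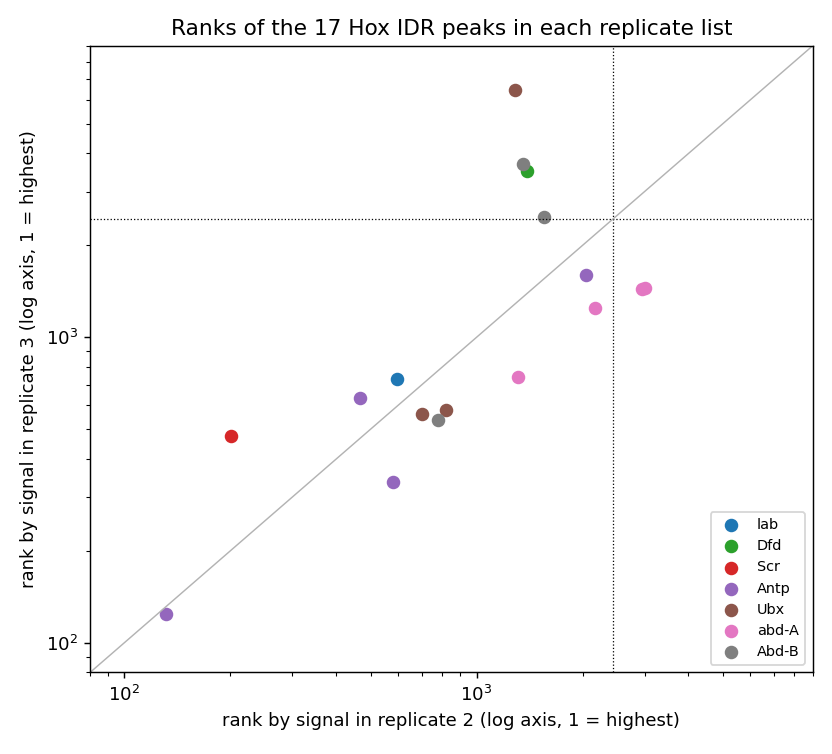
Ranks of the 17 Hox IDR peaks in replicate 2 (x axis) and replicate 3 (y axis), both on log axes with 1 as the highest signal. Points are peaks coloured by Hox gene, the diagonal marks equal rank, and dotted lines mark rank 2445. The 4 abd-A points lie below the diagonal, and the Ubx point at rank 1285 in replicate 2 lies at 6448 in replicate 3.

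Some Hox peaks were high in 1 library only. The 2445 highest peaks of replicate 2 held 18 Hox peaks, of which 3 were not IDR peaks, and the 13 of replicate 3 were all IDR peaks. Of Hox pooled peaks outside the IDR list, 3 of 180 (1.67%) were among the highest of replicate 2, against 1.39% elsewhere. For replicate 3 it was 0 of 180, against 1.56% elsewhere. The share in replicate 2 was thus near that of other genes. An abd-A peak at 16826333 to 16826696 ranked 1566 in replicate 2 and had no summit within 100 bp in the replicate 3 list. An Abd-B peak at 16970027 to 16970390 ranked 1858 in replicate 2 and 16693 in replicate 3. Just under the IDR list, the pooled Hox peaks were at ranks 2744 and 2822 (abd-A, signals 109.5 and 108.2) and 2864 (Antp, 107.7). The last Hox peak within it was at rank 2164 (abd-A, 121.9).

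A set of 15 motifs was sought on both strands within 50 bp of each summit, and 7 had a match at a Hox IDR peak. TTTTTT was found at 8 of 17 (47.1%, exact interval 23 to 72.2), against 21.8% of 1150 IDR peaks of other genes that lay away from 5′ ends, and 17.8% of the 180 other Hox pooled peaks. TATAAA, the TATA box, was found at 6 (35.3%, 14.2 to 61.7), against 21.5% and 12.8%. TTTATG was found at 4 (23.5%, 6.81 to 49.9), against 18.7% and 18.3%. The interval for TTTATG includes both values. That for TATAAA includes the value at other distal IDR peaks but not that at other Hox pooled peaks. The interval for TTTTTT includes neither, but it does include the 24.4% found at all other IDR peaks. TTTTTT had the highest share of the 15 motifs at Hox IDR peaks, and the intervals carry no adjustment for the number sought. The distal reference was added after values were seen, and neighbouring peaks are not independent. A value outside an interval is therefore not a test result. Within 100 bp of the summit, TTTTTT was at 12 of 17, TATAAA at 7 and TTTATG at 6. The shares of all other IDR peaks were then 43.5%, 35.5% and 26.3%. All 3 of these motifs are rich in A and T, and their matches can overlap.

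Motifs of proteins linked to the recruitment of Polycomb complexes were among those sought. GCCAT, the core for Pho, a DNA-binding Polycomb group protein, was found at 3 Hox IDR peaks (17.6%, against 16.9% of the other distal IDR peaks). GAGAG, for the GAGA factor, was found at 2 (11.8%, against 11%). At the other Hox pooled peaks the shares were 24.4% for GCCAT and 21.7% for GAGAG, both within the exact intervals at Hox IDR peaks (3.8 to 43.4 and 1.46 to 36.4). Within 100 bp of the summit, GAGAG was at 6 of 17, against 22.9% of all other IDR peaks, and GCCAT at 3 of 17, against 29.4%. TGCATA, for the insulator protein Su(Hw), was found at 2 (11.8%, against 10%), and the homeodomain core TAATTA at 1 (5.88%, against 10.3%). No Hox IDR peak held CAGGTAG (Zelda), TGAGTG (Zeste), GGTGGCGC (CTCF), TAATCC (Bicoid), AAGGGTT (Kruppel), TTACGTAA (Giant), TATCGATA (DRE) or GGTCACAC (M1BP). With 0 of 17, an exact 95% interval reaches 19.5%. The share of all other IDR peaks with these motifs ran from 0.165% for TTACGTAA to 3.95% for TGAGTG. Mean GC content was 34.3% ± 13.2 (SD, n = 17 peaks) at Hox IDR peaks, 34.6% ± 10.2 (n = 1150) at the other distal IDR peaks and 42% ± 10.3 (n = 180) at the other Hox pooled peaks. Whether GC content had a part in the counts of A and T rich motifs was not tested.

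**Figure D4:**
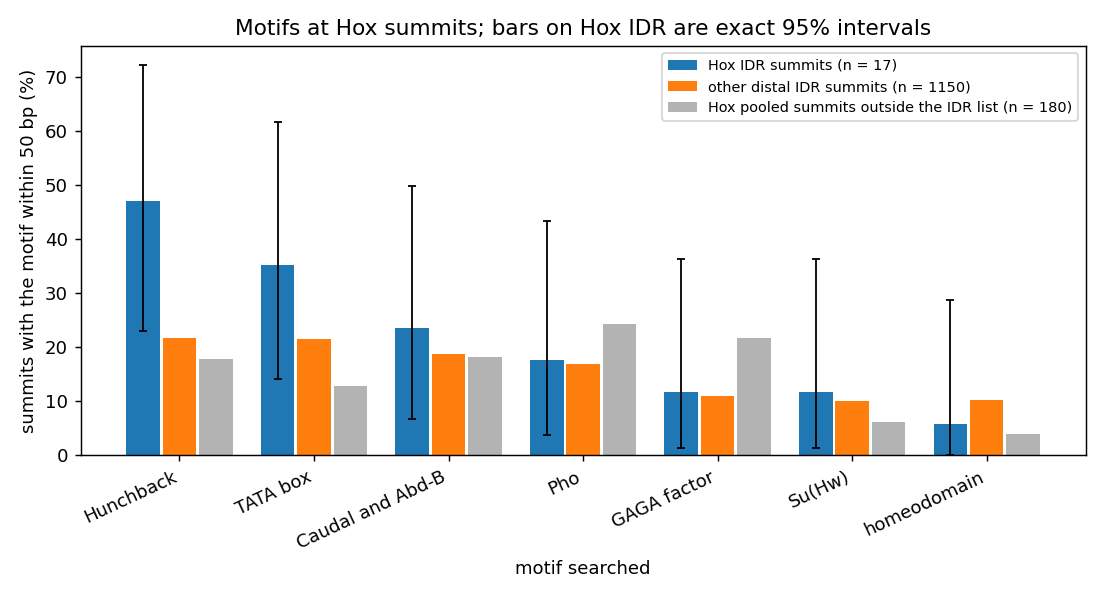
Share of summits with each motif within 50 bp, in percent, for the 7 motifs found at Hox IDR peaks. Blue bars are the 17 Hox IDR summits with exact 95% intervals, orange bars are 1150 IDR summits of other genes away from 5′ ends, and grey bars are the 180 other Hox pooled summits. The blue bar for Hunchback (TTTTTT) stands at 47.1%, against 21.8% and 17.8%. The share at all other IDR peaks, 24.4%, is not drawn.

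Other genes of the Hox system were read from lists by the same binomial test. Over all 13945 genes, 0.0359% were called higher and 14.9% had an IDR peak. Of 7 Hox cofactors and partners, 0 were called and 3 had an IDR peak. hth, which brings the cofactor Exd into the nucleus, had 3 IDR peaks against 2.75 expected (1.09-fold). Of the 4 other homeobox genes of the Antennapedia complex 0 were called. The pair-rule gene ftz, which lies between Scr and Antp, had 5 against 0.757 expected (6.61-fold, exact p = 0.0011, adjusted p = 0.503). Of 6 early regulators 0 were called, and kni, a gap gene, had 3 (4.23-fold, exact test, adjusted p = 1), while cad, which patterns the posterior, had 2 (6.22-fold, exact test, adjusted p = 1). The gap genes hb, Kr and gt had none.

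Of 15 Polycomb group genes 1 was called, against 0.0359% of all genes. ph-p, a subunit of Polycomb repressive complex 1, had 5 IDR peaks against 0.251 expected (20-fold, exact p = 6.66e-06, adjusted p = 0.0133). Psc, another subunit, had 3 (7.66-fold, exact test, adjusted p = 1). Of 9 trithorax group genes 0 were called, against the same share of all genes. trx, a histone methyltransferase, had 4 (8.89-fold, exact p = 0.00119, adjusted p = 0.503), and Trl, which encodes the GAGA factor, had 3 (10.3-fold, exact p = 0.00335, adjusted p = 0.853). These lists were chosen with results of these data known.

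Within the span from lab to Antp, 8 of 15 IDR peaks were given to other genes and to no Hox gene. Within the span from Ubx to Abd-B 8 of 18 were. In the Antennapedia complex ftz had 5 of them, with the highest at ranks 77 and 93, both above every Hox peak. The others were given to Ama, an immunoglobulin-domain gene (rank 185), to zen (1063) and to bcd (1085). In the bithorax complex they were given to MSAmiP (4), Glut3 (2) and CG31275 (2), with ranks from 408 to 2151. Much of that stretch is transcribed into non-coding RNA. lncRNA:bxd held 4 IDR summits and lncRNA:iab8 held 8, and those inside lncRNA:iab8 were given to abd-A (3), Abd-B (1) and MSAmiP without a Hox gene (4). The 3 abd-A summits lay within MSAmiP, so the rule gave them to MSAmiP as well. It likewise gave the 4 Antp peaks to CG46458 too. mir-10, the microRNA gene between Dfd and Scr, had its nearest IDR summit 29334 bp away.

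Genes most like the Hox genes in this pattern were those with most IDR peaks and none within 500 bp of a 5′ end. CG43245 had 7 (7.35-fold over expected, exact test, adjusted p = 0.0756) and kirre, an adhesion molecule of muscle founder cells, had 6 in 395 kb (0.832-fold). tara, CG46443, pros and Ptp61F had 5 each, with Ptp61F added as a tie to the 5 genes that the rule takes. pros encodes a homeodomain transcription factor of the nervous system.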

How the data were processed

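Peaks were read from 4 lists in narrowPeak format on dm6. Per the deposited notes, the authors called peaks on each replicate's alignment and on both together, each against a control alignment, and an IDR threshold gave the last list. Which caller, aligner and threshold they used is not stated in these sources. For each peak the authors deposited a signal value on a scale that is not stated, a −log10 q-value, which was not used, and a summit. Read depth is unknown, so no interval reflects it.

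Gene models came from Ensembl release 115 and sequence from the RefSeq copy of dm6. Coordinates are 1-based. Peaks were ranked by signal, and summits within 100 bp were taken as the same peak. In replicate 3, 1 peak lay off the arms. The sequence of a gene is its body plus positions whose nearest protein-coding TSS is its own. Exact binomial and Fisher tests per gene, two-sided, with Benjamini-Hochberg adjustment over all genes at 0.05, were tested on simulated data. Python 3.11.15, pandas 2.3.3, NumPy 2.4.6, SciPy 1.17.1 and matplotlib 3.10.9 were used. Alternatives changed the replicate, the IDR limit, the assignment, the matching distance, the promoter limit and the motif window.

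The genes, lists, motifs and tests were chosen with earlier results of these data known. Named are the 8 Hox genes, up to 4 members per list with the lowest adjusted p, and the 5 genes most like them. Values for hb, Kr and gt, Ama, MSAmiP, Glut3, CG31275, CG46458, Ptp61F, lncRNA:CR43252 and lncRNA:CR43435, the 20 kb limit, the marked motifs and the distal reference peaks were added after values were seen. The count of Hox genes with an IDR peak under each alternative was likewise added after values were seen, and a search for frequent short words at IDR summits was tried and is not reported.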

Additional observations from a re-analysis of the deposited data

How the results depend on the processing

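The 17 Hox IDR peaks became 9 among the 1222 IDR peaks of highest signal and 11 with summits inside the gene only. The 12 in introns became 7 among these 1222. With start sites of non-coding genes also allowed as the nearest TSS, 13 peaks at 6 Hox genes were left. Dfd then had 0, Ubx 2, abd-A 3 and Abd-B 2. With a promoter limit of 200 bp the 1 promoter peak became 0. With the 2445 highest peaks of 1 replicate in place of the IDR list, Hox peaks numbered 13 (without replicate 2) to 18 (without replicate 3), those in introns 11 to 13, and Hox genes with a peak 6 to 7. The number of Hox genes called was 0 for both tests under all 6 alternatives of list and assignment, which include leaving out either replicate. With 100 bp either side of the summit, matches among the 17 peaks rose from 2 to 6 for GAGAG, from 1 to 2 for TAATTA, from 0 to 1 for CAGGTAG, and from 0 to 2 for both TGAGTG and TAATCC, while a window of this length also holds more matches elsewhere. The abd-A ratio of 3.91 became 1.96 among these 1222 and 2.4 with summits inside the gene only. The Abd-B ratio of 2.81 ran from 0.937 without replicate 2 to 3.75 without replicate 3. No paired analysis was possible because the 2 replicates form 1 group. The low number of IDR peaks per Hox gene, 4 at most, limits which ratios the length test can call.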
